A study of Mus musculus with 18 samples.

Results

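The 10 genes described here encode transcription factors that set up and maintain the heart lineage: Nkx2-5, Gata4, Gata6, Mef2a, Mef2c, Mef2d, Tbx5, Tbx20, Hand2 and Srf. They are 10 of 21631 protein-coding genes on the chromosomes covered, and the rule names them without using a measured value, although they were chosen with earlier results of these data known. The sites of the circadian transcription factor BMAL1 near them were the peaks with a centre inside a gene or within 50 kb of either end, in chromatin immunoprecipitation sequencing (ChIP-seq) of mouse liver, kidney and heart. Such sites numbered 5 of 4813 in liver, 6 of 4034 in kidney and 7 of 2519 in heart. They merged into 10 of the 9005 regions that the 3 lists make when peaks overlapping by at least 1 bp are joined. A single peak list existed per tissue, built from 3 ChIP and 3 input libraries together, so no value below has a spread between animals and no difference was tested. Each peak carries a whole-number score from the authors, of unstated meaning, which is used only to rank peaks within a list, with rank 1 for the highest score.

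The mice were wild-type C57BL/6, 3 to 6 months old, housed with lights on for 12 h and off for 12 h and fed freely. Liver, kidney and heart came from the same 3 animals at zeitgeber time 6, which is 6 h after lights on. The ChIP antibody was raised in chicken to the N-terminal part of BMAL1. The groups differed by tissue alone, with no mutant, treatment or second time. The heart input libraries are labelled heart in title and tissue but kidney in another label, and a wrong input would touch every heart site below. The lists hold no expression values, so the tissues could not be checked by marker genes.

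BMAL1 pairs with CLOCK as a basic helix-loop-helix dimer and activates genes through the E-box, whose canonical form reads CACGTG. The heart lineage factors belong to several families that act together on cardiac genes. NKX2-5 is a homeodomain protein, GATA4 and GATA6 are zinc finger proteins, TBX5 and TBX20 are T-box proteins, HAND2 is a basic helix-loop-helix protein, and the MEF2 proteins and SRF are MADS-box proteins. Several of them, among them the MEF2 proteins, SRF and GATA6, also act outside the heart.

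Sequence was at hand where a site touched a promoter window of the RefSeq table for GRCm38.p6, which spans 250 bases before to 50 bases after a transcript start. This held for the highest-ranked region at Mef2d and for the only region at Nkx2-5. Both stretches are shown because they carry the E-boxes found under sites common to all 3 tissues, and both belong to long non-coding RNA genes, not to the factor genes themselves. Capitals mark CACGTG, and each stretch is the part of the window inside the merged region, on the minus strand.
Nkx2-5 region, start of Gm17382, chr17:26886197-26886329: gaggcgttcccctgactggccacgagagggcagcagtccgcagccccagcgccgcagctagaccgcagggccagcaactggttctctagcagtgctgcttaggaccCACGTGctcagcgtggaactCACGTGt
Mef2d region, start of 1700113A16Rik, chr3:88177736-88177834: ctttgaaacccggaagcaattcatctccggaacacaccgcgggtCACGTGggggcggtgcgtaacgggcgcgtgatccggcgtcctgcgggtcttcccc
The first stretch, 133 bases long, holds 2 copies of CACGTG separated by 14 bp, and the second, 99 bases long, holds 1. The rest of either region lies outside the window and was not searched.

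Of the 10 factor genes, 5 had a site in at least 1 tissue: Nkx2-5, Gata4, Mef2a, Mef2d and Srf. Gata6, Mef2c, Tbx5, Tbx20 and Hand2 had none. The background for such a count is 51.3% of all protein-coding genes, so 5 of 10 is near it. A liver site lay near 3 members (background 34.4%), a kidney site near 4 (33.5%) and a heart site near 4 (23.0%). Nkx2-5, Gata4 and Mef2d had sites of all 3 tissues, against 11.2% of protein-coding genes. The same 3 genes had a region common to all 3 tissues, against 6.62%. Mef2a was reached by a heart site alone and Srf by a kidney site alone. The members' gene spans had a median of 43.3 kb (3.54 to 163 kb) against 17.3 kb for all protein-coding genes, and a longer gene gives a wider window. Per Mb of window, the members held 3.11 liver, 3.73 kidney and 4.35 heart sites, against 2.66, 2.30 and 1.42 over the windows of all protein-coding genes. These densities rest on 5, 6 and 7 sites in 1.61 Mb and were not tested. Of the 7 heart sites, 3 were at Mef2d, and 5 had a member as their nearest protein-coding gene.

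**Figure D1:**
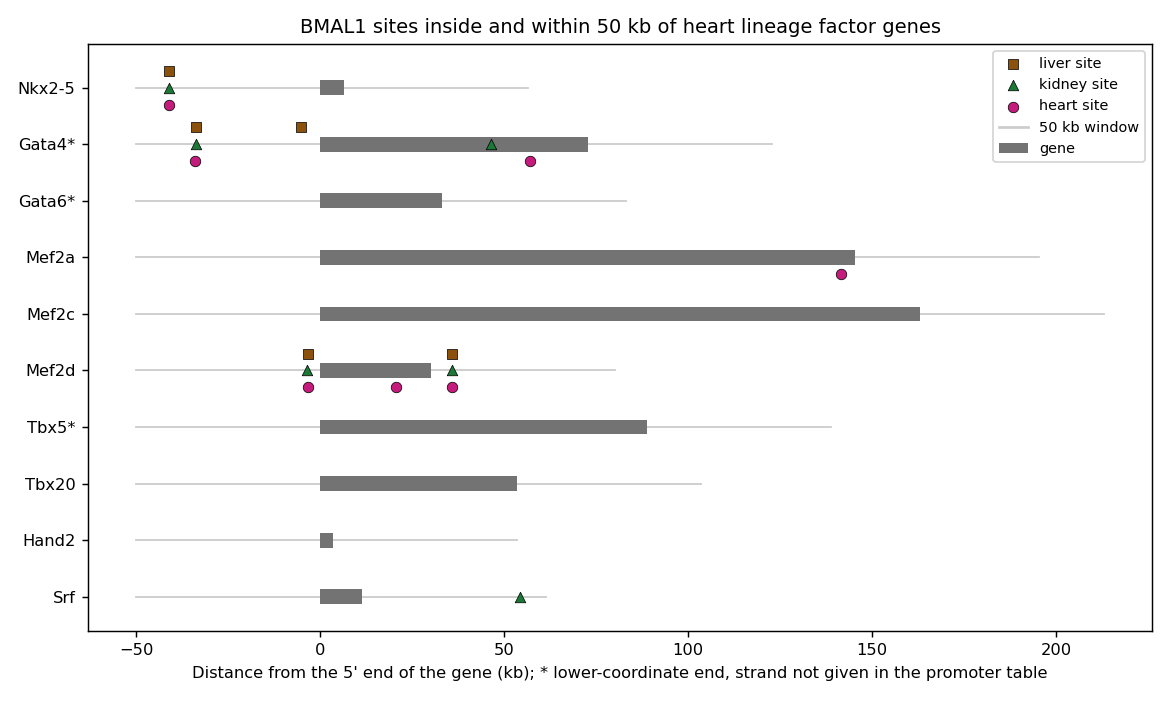
Position of each BMAL1 site (liver squares, kidney triangles, heart circles) relative to the 10 factor genes, in kb from the 5′ end of the annotated gene; grey bars are genes, thin lines the 50 kb on either side, and asterisks mark genes drawn from their lower-coordinate end. Sites of all 3 tissues stack at 1 position near Nkx2-5, 1 near Gata4 and 2 near Mef2d, and the lines of Gata6, Mef2c, Tbx5, Tbx20 and Hand2 are empty. For Nkx2-5 and Mef2d the annotated transcript start lies inside the gene span, so distances from the start in the text differ from those drawn.

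The distance rule mattered for which factor genes counted. With sites required to lie within 10 kb, Gata4, Mef2a and Mef2d remained, against 31.0% of protein-coding genes. With each site given only to its nearest protein-coding gene, the members with a site were again Gata4, Mef2a and Mef2d, against 26.1% of protein-coding genes. A site inside the gene itself was found in these 3 as well, against 18.9%. The sites at Nkx2-5 and Srf, and the highest-ranked region at Gata4, lay nearer to another protein-coding gene.

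Mef2d, a MADS-box factor expressed in many tissues, had the most sites of the 10 genes within 10 kb, in 3 regions. Its gene runs from 88141941 to 88172091 on chromosome 3, on the plus strand. The region past its 3′ end, 5.63 kb from it, ranked best of all regions near members by its mean position in the 3 lists. It was peak 168 of 2519 in heart with a score of 92 (chr3:88177621-88177818), 209 of 4034 in kidney with a score of 99 (chr3:88177647-88177834) and 465 of 4813 in liver with a score of 99 (chr3:88177584-88177825). These ranks put it in the upper 6.67% of heart peaks, 5.18% of kidney peaks and 9.66% of liver peaks. No other protein-coding gene came within 50 kb of this region. Its centres lay inside the long non-coding RNA gene 1700113A16Rik, near its start, and that gene runs on the strand opposite to Mef2d. The CACGTG in the second sequence above covers 88177785 to 88177790, where it meets the annotated start of 1700113A16Rik, and lies inside the peak of every tissue. It was 47.0 bp from the kidney centre, 68.0 bp from the heart centre and 83.0 bp from the liver centre.

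The second shared region at Mef2d lay before the gene, 3.92 kb upstream of the annotated start. It scored 66 at rank 502 in kidney (chr3:88138350-88138537), 37 at rank 723 in heart (chr3:88138358-88138555) and 61 at rank 1293 in liver (chr3:88138347-88138588). Kidney placed it in the upper 12.4% of its list, while heart and liver placed it at 28.7% and 26.9%. Among the 519 peaks per list that belong to regions common to all 3 tissues, it stood at 301 in kidney, 428 in heart and 409 in liver, below the middle of that class in each. A further site, found in heart only, lay inside Mef2d 20.1 kb downstream of the start, with a score of 35 at rank 788 of 2519 (chr3:88162407-88162604). Whether it lies in an exon or an intron cannot be told from the gene table used. The 3 Mef2d regions were 24.0 and 15.2 kb apart. Iqgap3, which encodes a scaffold protein of the cytoskeleton, was within 50 kb of the upstream and the internal region, but Mef2d was nearer to both.

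The other MEF2 genes differed from Mef2d in what lay around them. Mef2a, on chromosome 7 from 67231163 to 67376456 on the minus strand, had a single heart site (chr7:67234903-67235100). It scored 19, at rank 1708 of 2519 and 67.8% of the list, and lay inside the gene 3.84 kb from its 3′ end. The nearest kidney peak was 85.6 kb and the nearest liver peak 203 kb from Mef2a. Mef2c, the MEF2 gene required for early heart development, had the longest span of the 10 genes at 163 kb and no site at all. Its nearest peaks were 1720 kb away in liver and kidney and 1813 kb away in heart.

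**Figure D2:**
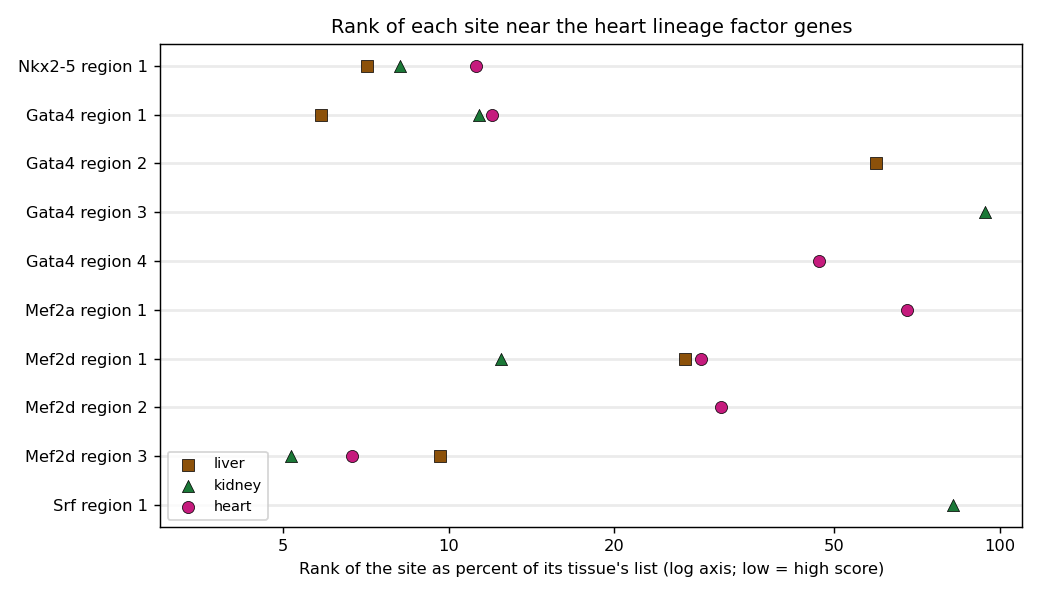
Rank of each site as a percent of its tissue's list, on a log axis, for the 10 regions near the factor genes, numbered along the chromosome within each gene. The 4 regions with 3 symbols are those common to all tissues, and the Mef2d region past the 3′ end (region 3) lies below 10% in every list.

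Nkx2-5, the homeodomain factor of early cardiac progenitors, had 1 region, common to all tissues. The gene lies on chromosome 17 from 26838664 to 26844988 on the minus strand. The region was 44.6 kb upstream of the annotated transcript start, which lies inside this span, and 41.2 kb from its 5′ end. Its score was 112 at rank 342 in liver (chr17:26886083-26886324), 81 at rank 329 in kidney (chr17:26886107-26886294) and 71 at rank 282 in heart (chr17:26886132-26886329). It was in the upper 7.11% of liver peaks, 8.16% of kidney peaks and 11.2% of heart peaks. Relative to list length, heart gave it the lowest place of the 3 tissues. By plain rank heart gave it the highest, so the order depends on the unequal lengths of the lists. The nearest protein-coding gene was Kifc5b, a kinesin-like gene 30.9 kb away, with Nkx2-5 at 41.2 kb and Phf1 also within 50 kb. The centres lay inside the long non-coding RNA gene Gm17382, whose annotated start is under the peaks.

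Both E-boxes of the Gm17382 stretch were inside the peak of each tissue. The copy at 26886198 to 26886203 was 0 bp from the kidney centre, 3.00 bp from the liver centre and 30.0 bp from the heart centre. The copy at 26886218 to 26886223 was 10.0 bp from the heart centre, 17.0 bp from the liver centre and 20.0 bp from the kidney centre. They lie 45.5 and 25.5 bp downstream of the annotated start of Gm17382. The 3 peak centres of this region fell within 30.0 bp of each other, and those of the Mef2d region past the 3′ end within 36.0 bp. Over all 519 common regions the median spread was 27.0 bp, with quartiles of 17.0 and 46.0 bp.

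CACGTG was searched on both strands of all 32585 promoter windows of 300 bases, and 7.20% held at least 1 copy. At least 2 copies, as at Gm17382, were in 0.598%. Of the windows that a peak overlapped, at least 1 copy was in 38.6% for liver, 35.7% for kidney and 34.4% for heart, and at least 2 in 8.88, 7.30 and 7.34%. The looser pattern CANNTG, which includes CACGTG, was in 72.3% of all windows. Of the 519 common regions, 7.51% overlapped a promoter window of a long non-coding RNA, against 2 of the 4 common regions near members. A motif match is a description of the letters and not a measured contact.

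The table held promoter windows for 7 of the 10 factor genes. None of the windows of Nkx2-5, Mef2a, Mef2c, Mef2d, Tbx20, Hand2 and Srf held CACGTG. That motif was in 7.20% of all windows, a share at which finding none in so few windows says little. The variant CACGTT, searched on both strands and present in 4.72% of all windows, occurred once, in Hand2. No member window was overlapped by a peak. Of all 32585 windows, a liver peak overlapped 1047, a kidney peak 1357 and a heart peak 695. At such shares, finding none among so few member windows says little. Closest was the Mef2d window, with peak centres 3.90 kb from the start in liver, 3.92 kb in heart and 3.93 kb in kidney. Gata4, Gata6 and Tbx5 had no window.

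Gata4, a zinc finger factor of cardiac and endodermal cells, had 4 regions, of which 1 was common to all tissues. The gene covers 63198914 to 63271712 on chromosome 14. The common region was 33.9 kb from its lower-coordinate end and lay inside Fdft1, which encodes squalene synthase, an enzyme of cholesterol synthesis. It scored 120 at rank 283 in liver (chr14:63164868-63165109), 69 at rank 458 in kidney (chr14:63164893-63165080) and 68 at rank 302 in heart (chr14:63164875-63165072). This was the upper 5.88% of liver peaks, 11.4% of kidney peaks and 12.0% of heart peaks. Neil2, a DNA glycosylase gene, and Ctsb, which encodes cathepsin B, were also within 50 kb of the region and nearer than Gata4.

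The other 3 regions at Gata4 each belonged to a different tissue. A liver site inside Neil2 was 5.31 kb from Gata4, with a score of 33 at rank 2869 of 4813 (chr14:63193479-63193720). A heart site inside Gata4 scored 26 at rank 1184 of 2519 (chr14:63255909-63256106). A kidney site inside Gata4 had the lowest score of its list, 14, a value shared by the peaks from rank 3802 to 4034 (chr14:63245256-63245443). The kidney and heart sites inside the gene were 10.7 kb apart, so the tissues had no position in common within Gata4 itself. Gata6, the related factor on chromosome 18, had no site within 50 kb, and its nearest peaks were 94.7 kb away in liver, 203 kb in heart and 727 kb in kidney.

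Srf, whose product drives cytoskeletal and muscle genes, had 1 kidney site and no other. The gene lies on chromosome 17 from 46546838 to 46558267 on the minus strand, and the site was 42.9 kb beyond its 3′ end (chr17:46503861-46504048). It scored 17 at rank 3323 of 4034, or 82.4% of the list, and lay inside Cul9, a cullin gene of ubiquitin ligases. Dnph1 and Ttbk1 were also nearer to it than Srf. The nearest peaks of the other tissues were 108 kb from Srf in liver and 123 kb in heart.

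The T-box genes and Hand2 had no site. Tbx5, which is mutated in a human heart and hand syndrome, had its nearest peaks at 213 kb in liver, 281 kb in kidney and 618 kb in heart. That heart peak scored 99 at rank 146, so a strong peak was on the chromosome but far from the gene. Tbx20 had its nearest peaks at 208 kb in liver, 1267 kb in kidney and 2082 kb in heart. Hand2, a factor of the right ventricle and outflow tract, had its nearest peaks at 107 kb in heart, 164 kb in liver and 328 kb in kidney. The members' sites closest to the 50 kb limit were at Srf (42.9 kb) and Nkx2-5 (41.2 kb), and the nearest peaks beyond it were a liver and a kidney peak 75.0 kb from Gata4. Up to 100 kb there were further peaks at Mef2a (85.6 kb, kidney), at Gata6 (94.7 kb, liver) and at Nkx2-5. The Nkx2-5 peaks at 88.0 kb ranked 95 in heart, 97 in kidney and 138 in liver, above every site inside the window.

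**Figure D3:**
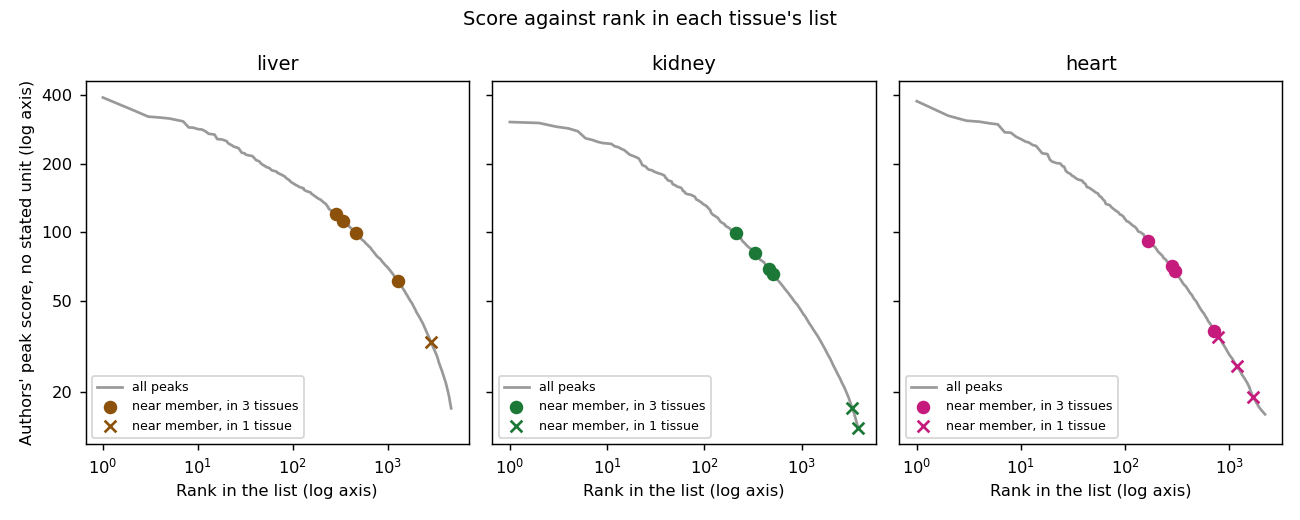
Authors' score against rank for all peaks of each list (grey line, both axes logarithmic), with the sites near the factor genes marked as circles where the region was in all 3 tissues and crosses where it was in 1. Circles lie to the left of crosses in every list, and in heart the lowest circle (score 37) and the highest cross (score 35) are nearly together.

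Shared and single-tissue sites near the members divided by score. Of the 10 regions, 4 were in all 3 tissues (5.76% of all regions), 0 in 2 tissues (14.7%) and 6 in 1 tissue (79.5%). In liver the shared sites scored 61, 99, 112 and 120 and the liver-only site 33. In kidney they scored 66, 69, 81 and 99 against 14 and 17 for kidney-only sites. In heart they scored 37, 68, 71 and 92 against 19, 26 and 35 for heart-only sites. The ranges did not overlap in any list, although the gap in heart was small and the sites were few. Over the whole lists the median scores of peaks in regions of 3 tissues and of 1 tissue were 99.0 and 32.0 in liver, 76.0 and 22.0 in kidney and 69.0 and 20.0 in heart. The same direction thus held over all peaks, and the separation near the members is not particular to these genes. A weak site can be missed in another list, so a lower score of single-tissue sites is partly built into these classes.

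The order of the shared regions changed between tissues. In liver the region in Fdft1 near Gata4 ranked first (283), then Nkx2-5 (342), the Mef2d region past the 3′ end (465) and the upstream Mef2d region (1293). In kidney the order was the Mef2d region past the 3′ end (209), Nkx2-5 (329), the region in Fdft1 (458) and the upstream Mef2d region (502). In heart it was the Mef2d region past the 3′ end (168), Nkx2-5 (282), the region in Fdft1 (302) and the upstream Mef2d region (723). The scores of neighbours in this order, such as 71 and 68 in heart, were close, and without replicates they cannot be told apart or shown to be equal. Across the sites of a list, the median position near members was 9.66% in the liver list, 11.9% in the kidney list and 28.7% in the heart list, against 48.7, 48.7 and 49.9% over all peaks of those lists. Sites of the 4 shared regions made up 4 of 5 in liver, 4 of 6 in kidney and 4 of 7 in heart. Such peaks were 10.8, 12.9 and 20.6% of the whole lists. The medians therefore mix shared and single-tissue sites in proportions that differ between tissues.

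Other regulators of heart development were set beside these 10 genes. Of 24 such genes, 8 had a heart site within 50 kb (23.0% of protein-coding genes), 8 a kidney site (33.5%) and 7 a liver site (34.4%), so the kidney and liver counts were near the background. Hey1, a Notch target repressor, held the highest heart rank among them (328 of 2519, score 64) and the only region of the 24 genes common to all tissues, although the nearest protein-coding entry to its heart site was LOC115489673. Mrtfb, which encodes a coactivator of SRF, had a heart-only site inside the gene with a score of 45 at rank 554. Zfpm1, a GATA cofactor gene, had a heart-only site at rank 723 that lay 47.8 kb away and nearer to Zfp469. Gata5 and Hopx each had a heart site with a score of 30 at rank 970. The Gata5 site was at the outer edge of the window, and the Hopx site was shared with liver.

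A list of 20 cardiac target genes held contractile, calcium-handling and conduction genes and the natriuretic peptide genes Nppa and Nppb. Of these, 8 had a heart site, 8 a kidney site and 4 a liver site, against the same 23.0, 33.5 and 34.4% of protein-coding genes. Heart-only sites lay inside Myl2 (score 45, rank 554), beside Actn2 (score 41, rank 628) and 8.68 kb from Atp2a2 (score 37, rank 723). A heart-only site at rank 763 was within 50 kb of Nppa and of Nppb, and nearest to 2510039O18Rik. None of the 20 genes had a region common to all tissues, against 6.62% of protein-coding genes, a share at which a count of 0 in 20 says little.

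**Figure D4:**
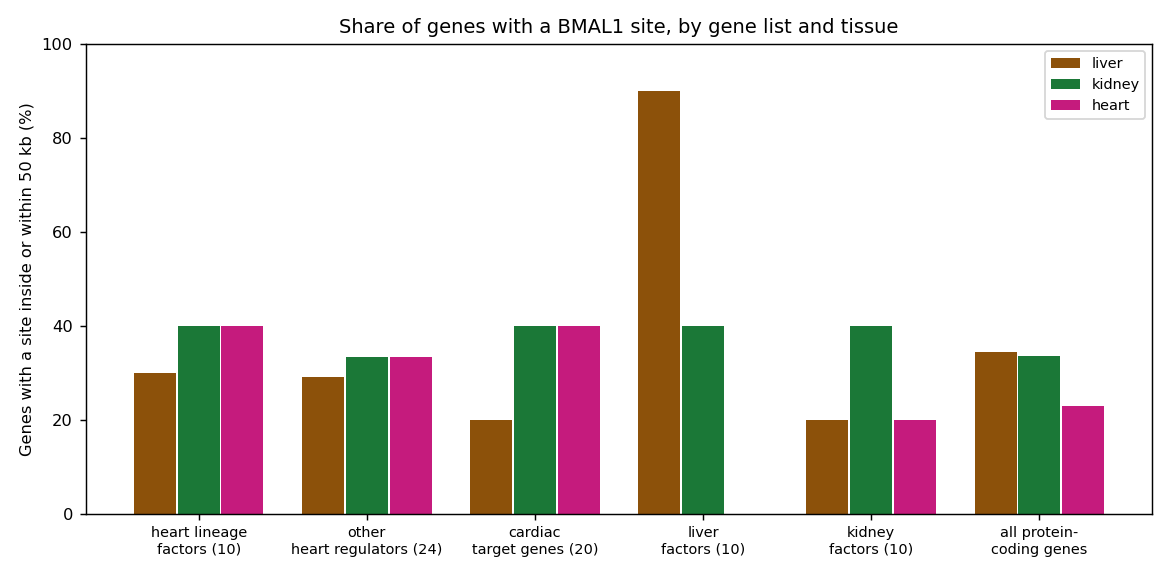
Percent of genes with a site inside or within 50 kb in each tissue, for the 10 heart lineage factors, the other lists (number of genes in brackets) and all protein-coding genes. Bars for the heart lineage factors are at 3 of 10 genes in liver and 4 of 10 in kidney and heart, beside 34.4, 33.5 and 23.0% for all protein-coding genes.

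Lineage factors of the other tissues gave different counts for the same window, and the differences were not tested. Of 10 liver factors, 9 had a liver site (background 34.4%), 4 a kidney site (33.5%) and 0 a heart site (23.0%). Cebpa and Hnf4a had liver sites at ranks 156 and 189 of 4813, followed by Onecut1 at 788 and Cebpb at 1225. The Cebpa site was 47.5 kb from that gene and nearer to Slc7a10, while the Hnf4a site was inside Hnf4a. Of 10 kidney factors, 4 had a kidney site, 2 a liver site and 2 a heart site, read against the same backgrounds, among them Lhx1 (rank 1249 of 4034), Pax2 (3164) and Pax8 (3802) in kidney. The Lhx1 site was 4.41 kb from that gene and nearer to Aatf. Neither of these lists had a gene with a region common to all 3 tissues. The background is 6.62%, a share at which a count of 0 in 10 says little. Of the 3 heart lineage factor genes with a region common to all tissues, Mef2d alone kept one within 10 kb or by nearest protein-coding gene. The share of all protein-coding genes with a common region was not computed at these 2 settings, so this count is not a result about the members.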

How the data were processed

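BMAL1 ChIP-seq and input libraries came from liver, kidney and heart, 3 of each kind per tissue, 18 in all. Per the submitters' processing notes, Bowtie2, SAMtools and HOMER were used with the build mm10, which is GRCm38; their versions, roles and filters were not among the sources used here. The authors deposited 1 peak list per tissue, made from all its ChIP and input libraries together, with a score per peak whose meaning is not stated. Pooling removes the variation among mice and the depth of sequencing is unknown, so no test was run, and a deeper pool may hold more weak peaks.

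Gene spans and promoter windows came from RefSeq tables of GRCm38.p6, using chromosomes 1 to 19 and X; all 10 members matched a symbol. Peaks were assigned by centre, ranked by score with ties at the lowest rank number, and merged at an overlap of at least 1 bp with Python 3.11.15 and pandas 2.3.3. Assignment and merging were checked on simulated peaks. Counts of genes were read against the percent of all protein-coding genes with a site. No genome sequence was used, so motifs were searched in promoter windows only. The named genes were the 10 members, the nearest protein-coding genes of their sites and at most 5 genes per other list, those with the best rank in their own tissue; a few genes that this rule selects are not reported here. The members and lists were chosen with earlier results of these data known.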

Additional observations from a re-analysis of the deposited data

How the results depend on the processing

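With each site given to its nearest protein-coding gene, the members with a site numbered 1 in liver and 2 in kidney, against 3 and 4 in the 50 kb window, with 2 liver and 3 kidney sites against 5 and 6 and 2 common regions against 4. A 10 kb window gave 2 members with a kidney site, 3 liver and 3 kidney sites and 2 common regions, and a 100 kb window gave 9 liver and 10 kidney sites. The other 26 of 37 recomputed counts stayed within 1.5 times, among them every count of heart sites and all those from the upper 50% of each list, the same number of top peaks, an overlap of 50% and centres within 1 kb. Gata4 lost its common region at 10 kb, leaving best sites at 59.6% in liver, 94.2% in kidney and 47.0% in heart; giving ties their highest rank number moved Mef2a to 72.4% and Srf to 86.2%. At 10 kb, heart regulators fell to 4 in liver and 3 in heart, target genes to 2 in liver and kidney and 4 in heart, liver factors to 2 in kidney and kidney factors to 0 in heart. In the upper 50% of each list, heart regulators numbered 2 in kidney and 5 in heart, target genes 0 in liver and 5 in kidney, liver factors 5 in liver, and kidney factors 1 in liver, 2 in kidney and 0 in heart. A narrower window or a shorter list also lowers the share of all protein-coding genes with a site. That share was not computed per tissue or for common regions at these settings, so the lower counts are not results about these gene lists. No paired analysis was possible because each list was made from all animals of a tissue together, and for the same reason no replicate could be left out. Read depth is unknown, so a missing site may be a site too weak for its list.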

Other observations

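The common regions whose ranks were most like those of the Mef2d region past the 3′ end were sought by the distance between their percent positions in the 3 lists. Nearest was a region beside Mcfd2, which encodes a protein of secretory transport, at 9.20% in liver, 4.39% in kidney and 6.43% in heart, a distance of 0.946 percentage points. Next came a region in the overlapping genes Rbm4b and Gm21992 (1.43 points) and another beside Bop1, a ribosome biogenesis gene (1.69 points). This is a likeness of ranks over 3 pooled lists and nothing more.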
